A study of Mus musculus with 6 samples.

Results

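The genes described here are 37 interferon-induced genes, chosen by name: 8 GTPases of the immunity-related (IRG, with Tgtp1 and Ifi47) and guanylate-binding (GBP) families that type II interferon (interferon gamma) induces, and 29 genes of the IFIT, OAS and Mx families, antiviral effectors, RNA sensors, transcription factors and the PARP and DTX proteins. All but Irf1 of the latter are counted below as induced by type I interferon (28 genes). Irf1 responds to both interferon types and was counted in neither group. Probe sets that name exactly 1 gene measured 34 of the 37, among 18193 genes measured in all. The probe sets of Tgtp1 and Isg15 each name a second gene, so that neither was counted, and Ifi44 was not analysed here. Of the 34, 21 have 1 probe set and 13 have several, 52 probe sets in all, and each gene was represented by the probe set with the highest mean over all arrays, called the brightest.

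RNA came from mammary gland epithelial organoids, the fragments of ducts left after digestion of the gland, of mice 8 weeks old on a mixed background (129/J; C57BL/6). The 3 WT mice (WT1, WT2 and WT3) carried WWOX flox/flox without the transgene (BK5-cre -), and the 3 KO mice (KO5, KO6 and KO7) carried BK5-cre + with the same floxed alleles, 1 Affymetrix array per mouse. In BK5-cre the keratin 5 promoter drives Cre recombinase from an embryonic stage in epithelial precursors, and the floxed exon is lost in their descendants. No WT mouse carried Cre, so its own effect and that of losing Wwox cannot be told apart. The deposited log2 values come from RMA, a method that subtracts a background, gives all arrays the same distribution of values and summarises each probe set. A difference of 1 is therefore 2-fold, and levels are compared between arrays for the same probe set, never between genes.

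Interferons are cytokines of antiviral and antibacterial defense. Type I interferons bind the receptor pair Ifnar1 and Ifnar2, and through Jak1 and Tyk2 they activate a complex of STAT proteins and Irf9 that binds the interferon-stimulated response element (ISRE). Type II interferon binds Ifngr1 and Ifngr2, and through Jak1 and Jak2 it activates a STAT dimer that binds the gamma-activated site (GAS) and induces Irf1, which in turn acts on ISRE-like sequences. Many genes answer to both. Epithelial cells, endothelial cells, fibroblasts and leukocytes all respond, while interferon gamma itself is a product of T and NK cells.

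To show the regulatory sequence on which these pathways converge, the promoters of the members were searched for the ISRE core GAAANNGAAA (TTTCNNTTTC on the other strand) and for the GAS core TTCNNNGAA, which reads the same on both strands. RefSeq promoter windows (GRCm38.p6) of 300 bases, from 250 before to 50 after an annotated start, were on hand for 28 of the 37 genes, in 32 windows. An ISRE core lay in 16 of these 28 genes and in 16 of the 32 member windows, against 3.44% of all 32851 windows, and a GAS core in 9 genes and 28.1% of the member windows, against 8.30%. The 2 cores overlapped in 1 member window and in 24 of all windows. In Irgm2, Igtp and Tgtp1 a GAS core began 11 bases before an ISRE core, an arrangement found in 5 of the 32851 windows, these 3 among them. Only this spacing, the one that these genes have, was counted over all windows. These matches describe letters in a window and not binding. The 100 bases from 110 to 11 upstream of the start are shown for 3 GTPase genes that were lower in KO and 1 that was not, and for the IFIT gene with the smallest p, in lower case with matches to either core in capitals:
Irgm2 (chr11:58214867-58214966, plus strand): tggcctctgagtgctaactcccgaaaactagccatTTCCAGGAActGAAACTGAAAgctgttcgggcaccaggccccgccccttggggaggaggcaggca
Igtp (chr11:58199446-58199545, plus strand): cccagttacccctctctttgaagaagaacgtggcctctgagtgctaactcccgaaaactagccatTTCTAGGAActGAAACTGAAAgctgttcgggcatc
Ifi47 (chr11:49076477-49076576, plus strand): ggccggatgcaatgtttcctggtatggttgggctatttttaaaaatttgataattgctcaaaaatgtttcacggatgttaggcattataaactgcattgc
Irgm1 (chr11:48871431-48871530, minus strand): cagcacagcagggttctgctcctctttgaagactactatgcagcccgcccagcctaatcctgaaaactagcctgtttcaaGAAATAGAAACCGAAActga
Ifit1 (chr19:34640779-34640878, plus strand): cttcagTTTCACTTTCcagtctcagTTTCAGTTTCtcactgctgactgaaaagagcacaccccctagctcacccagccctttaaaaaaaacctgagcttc

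Irgm2 and Igtp, neighbours on chromosome 11, shared 68 of 70 bases when their windows were aligned at the GAS core, which lay 75 bases upstream of the start in Irgm2 and 45 in Igtp. The Irgm1 window held 2 overlapping ISRE cores, 30 and 24 bases upstream, and no GAS core. The Ifit1 window held 2 ISRE cores, 104 and 85 bases upstream. No match to either core lay in the Ifi47 window. Among genes with a window, an ISRE core was present in 4 of the 6 that were lower in KO at an unadjusted p under 0.05 and in 8 of the 17 measured genes that were not different at that limit.

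On the arrays Wwox itself was lower in KO. The brightest of its 4 probe sets averaged 7.71 in WT and 6.02 in KO (SD 0.07 and 0.19, n = 3 each), a log2 change of -1.69 (limma adjusted p = 0.0228). The mean 3' minus 5' difference of the Gapdh and β-actin control probe sets is a measure of RNA integrity. On the log2 scale it lay between 0.965 and 2.13 in WT and between 0.543 and 0.597 in KO. It therefore moves with genotype, and a fit with it as a covariate cannot separate RNA integrity from genotype. Keratin genes of the labelled epithelium were present in both groups, with Krt18 at 14.30 in WT and 14.43 in KO and Krt5 at 8.90 and 8.99. Of 12 luminal and 9 basal marker genes 1 was called, a luminal gene, as lower, where 0.462% of all genes were called lower. The log2 changes of the luminal markers ran from -1.90 to 0.61 and those of the basal markers from -0.40 to 0.33.

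Of the 34 genes, 10 differed between KO and WT organoids at an unadjusted p under 0.05 in limma and 1 was called. Calls were made in limma on the brightest probe set of a gene and needed, as in the methods of the study, a 2-fold difference or more together with an unadjusted p below 0.01. 1 member was called lower, the GTPase gene Ifi47, and 0 were called higher, where 0.462% of all genes were called lower and 0.517% higher. At an unadjusted p under 0.05 with no limit on fold, 8 members were lower in KO (23.5%, against 13.0% of all genes) and 2 were higher (5.88%, against 6.17%). The 8 were Ifi47, Irgm2, Igtp, Ifit1, Ifit2, Ifih1, Usp18 and Mx1, and the 2 were Stat2 and Eif2ak2. All 3 KO arrays lay below all 3 WT arrays for 9 members (26.5%, against 16.1% of all genes), which are the 8 and Dhx58, and above them for Stat2 and Eif2ak2 (5.88%, against 7.20%). The remaining 23 overlapped between the groups. At an adjusted p under 0.05, where 0.137% of all genes lay, Ifi47 was the 1 member, and 9 of 15 alternatives took it past that limit. The median log2 change was -0.12 over the members and -0.06 over all genes. These RNAs come from a mixture of cells, in which fewer cells of a type and less RNA per cell cannot be told apart.

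**Figure D1:**
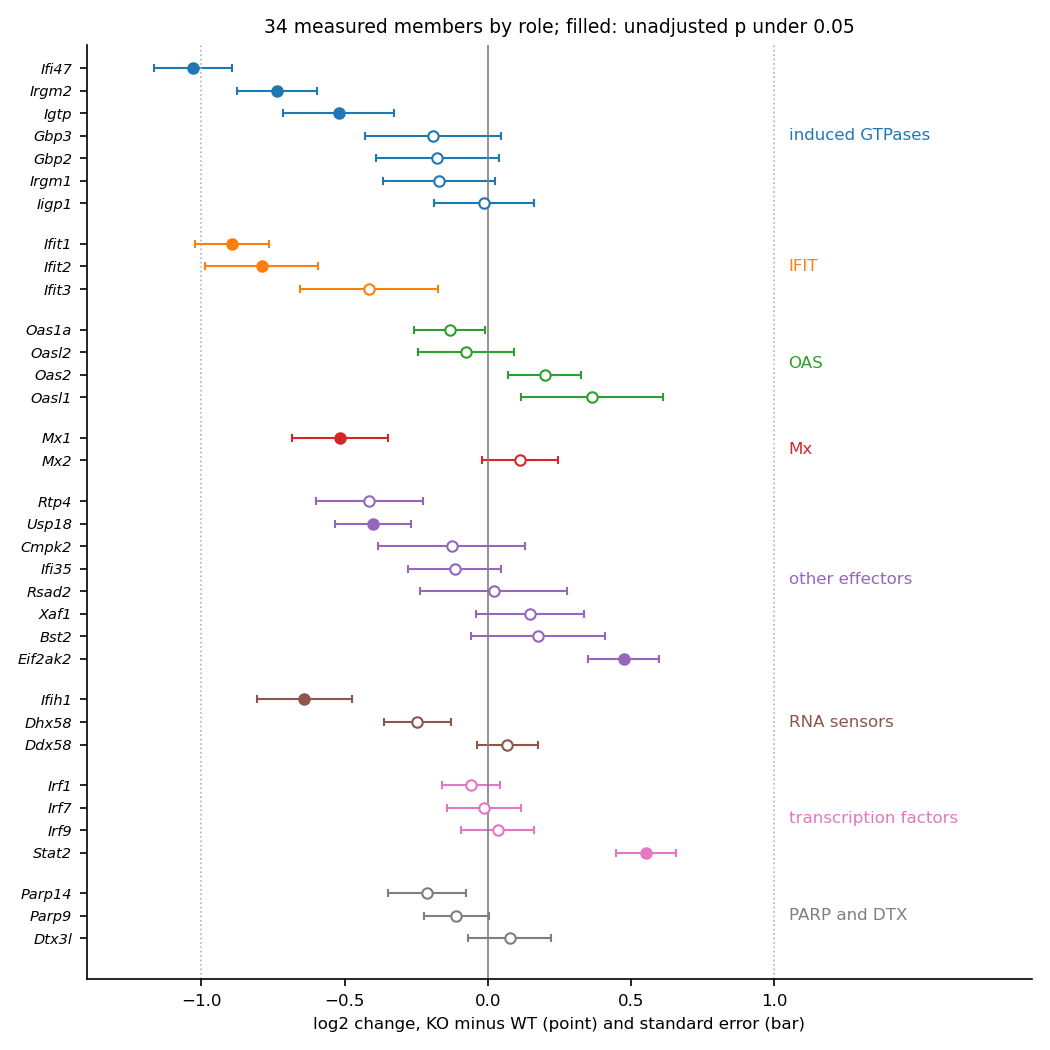
Log2 change (KO minus WT, x axis) of the 34 measured members on their brightest probe set, grouped by role; points are limma estimates from 3 WT and 3 KO arrays, bars their standard errors, filled points an unadjusted p under 0.05, and dotted lines 2-fold. Ifi47 lies furthest to the left at -1.03 and Stat2 furthest to the right at 0.55.

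The interferon-inducible GTPases guard vacuoles that hold parasites and bacteria. Ifi47 (also called Irg-47) fell in KO. Its values were 9.58, 9.93 and 9.68 in WT1, WT2 and WT3 and 8.70, 8.85 and 8.55 in KO5, KO6 and KO7. The groups lay apart, and the KO level was 49.0% of the WT level, with a log2 change of -1.03 (standard error, SE, 0.14; limma adjusted p = 0.0492). The change was close to the 2-fold limit, and Ifi47 was not called after cyclic loess normalization (-0.98), after ribosomal protein centring (-0.99), without WT2 (-0.93) or without KO7 (-0.96). With the 3' minus 5' difference as a covariate it was at -0.74 (unadjusted p = 0.0159 in limma) and was not called. Its limma adjusted p stayed under 0.05 in 6 alternatives. It was 0.0739 with the replicate block, 0.053 after cyclic loess, 0.0764 on averaged probe sets, 0.183 without WT2, 0.0731 without WT3 and between 0.0945 and 0.169 without each KO array.

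Irgm2 and Igtp (Irgm3) belong to the regulatory IRG proteins, which sit on the cell's own membranes and keep other IRG proteins inactive there. Irgm2 was at 7.20, 7.50 and 7.33 in WT1 to WT3 and at 6.48, 6.82 and 6.53 in KO5 to KO7, with the groups apart. Its log2 change was -0.73 (SE 0.14, limma adjusted p = 0.0668), and it was -0.46 (unadjusted p = 0.0964 in limma) with the 3' minus 5' covariate. Igtp was highest in WT1, at 8.75, with 8.36 and 8.36 in WT2 and WT3, and lowest in KO5, at 7.59, with 8.14 and 8.18 in KO6 and KO7. The KO arrays again lay below the WT arrays, by a mean of 0.52 on the log2 scale (limma adjusted p = 0.206). Without WT1 or without KO5 the Igtp difference was -0.39 and -0.33 (unadjusted p = 0.0909 and 0.0902 in limma), and with the covariate it was -0.90 (unadjusted p = 0.034 in limma).

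The third regulatory protein is Irgm1. It was at 7.76, 8.09 and 8.23 in WT and 7.81, 8.20 and 7.56 in KO, with the groups overlapping and a log2 change of -0.17 (SE 0.20). Gbp2 and Gbp3 encode guanylate-binding proteins, which coat bacterial vacuoles. Gbp2 was at 9.52, 9.94 and 10.22 in WT and at 9.41, 9.80 and 9.95 in KO, on a probe set of the x_at kind that can hold probes for related genes, and the other Gbp2 probe set differed by -0.17. Gbp3 was at 8.26, 9.06 and 9.06 in WT and 8.78, 8.66 and 8.37 in KO, a difference of -0.19. Both genes overlapped between the groups, and without WT1 the difference of Gbp3 was -0.46.

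Iigp1 encodes an effector IRG protein that breaks up parasite vacuoles, and its probe sets gave different values. The brightest was at 10.76, 10.55 and 10.96 in WT and 10.58, 10.59 and 11.06 in KO, a log2 change of -0.01 (SE 0.17). The other was at 9.64, 9.73 and 10.06 in WT and 9.22, 9.14 and 9.68 in KO, a change of -0.46 (unadjusted p = 0.0378 in limma), with KO7 above WT1. Over the 7 measured GTPases all changes were negative, from -1.03 to -0.01, where 61.2% of all genes were negative. Their median was -0.19, against -0.06 over all genes, and 3 of the 7 were lower at an unadjusted p under 0.05 in limma, against 13.0% of all genes. The sign was not the same in every setting for 4 of them: with the 3' minus 5' covariate Irgm1, Gbp2 and Gbp3 differed by 0.21, 0.31 and 0.61, and Iigp1 by 0.03 after cyclic loess normalization or ribosomal protein centring. The differences between GTPases were not tested. Over the 26 measured type I induced members the median was -0.09, with 5 lower at that limit (19.2%, against 13.0% of all genes) and 2 higher (7.69%, against 6.17%), shares near those of all genes. Without WT1 the GTPase median was -0.39, and without WT3 the type I median was -0.0054.

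**Figure D2:**
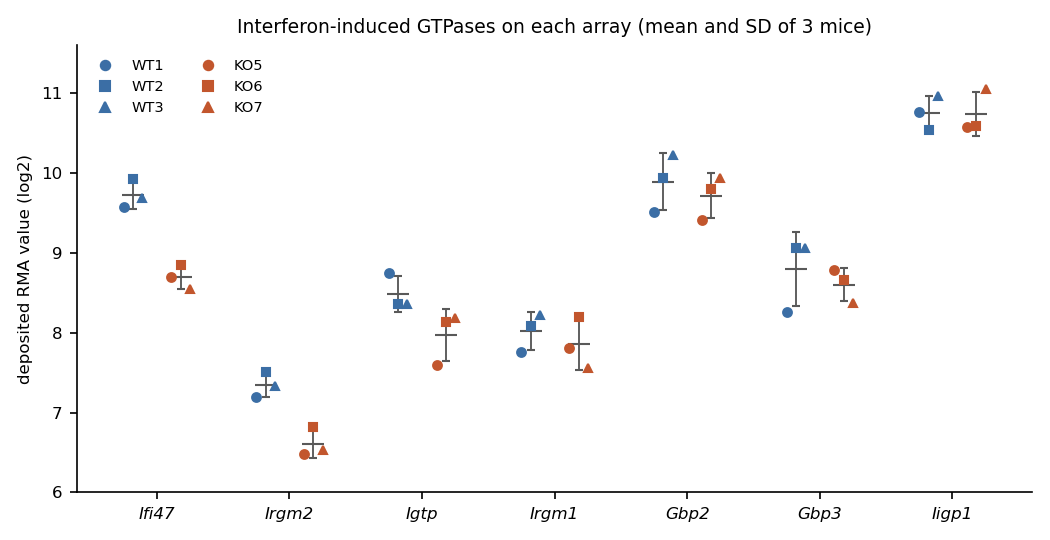
Deposited RMA values (log2, y axis) of the 7 measured GTPase genes on their brightest probe set; each point is 1 array, bars the mean and SD of 3 mice, blue WT and orange KO. The 3 KO arrays of Ifi47 lie between 8.55 and 8.85, below the WT arrays at 9.58 to 9.93, while Iigp1 overlaps.

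Among the type I induced genes, Ifit1 and Ifit2 had the most negative differences. IFIT proteins bind foreign RNA and block its translation, and the 3 genes lie together on chromosome 19. Ifit1 was at 8.77, 9.16 and 8.91 in WT1 to WT3 and at 8.02, 8.09 and 8.05 in KO5 to KO7. The KO arrays had an SD of 0.03 and all lay below WT, at 53.8% of the WT level, with a log2 change of -0.89 (SE 0.13, limma adjusted p = 0.05004). Ifit1 missed the 2-fold limit of a call and met its limit on the unadjusted p (0.000174 in limma). With the 3' minus 5' covariate it was at -0.57 (unadjusted p = 0.0253 in limma). Ifit2, which promotes cell death as well as blocking translation, was at 7.84, 8.63 and 8.35 in WT and 7.40, 7.55 and 7.49 in KO. Its log2 change was -0.79 (SE 0.20, limma adjusted p = 0.0995), and the WT arrays spread more widely than the KO arrays (SD 0.40 and 0.08). Without WT1 it was called, at -1.004, and with the covariate it was at -0.08 (unadjusted p = 0.674 in limma). Ifit3 was at 7.12, 7.59 and 8.12 in WT and at 7.19, 7.05 and 7.33 in KO, with WT1 inside the KO range and a difference of -0.42 (limma adjusted p = 0.397).

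With the covariate Ifit3 was at 0.17. OAS enzymes make the oligoadenylates that switch on RNA degradation, and Oasl1 and Oasl2 encode related proteins. The 4 changes of this family ran from -0.13 for Oas1a to 0.36 for Oasl1, all with overlap between the groups and 0 at an unadjusted p under 0.05 in limma. Oas1a, an oligoadenylate synthase, was at 8.77, 8.68 and 8.88 in WT and 8.80, 8.50 and 8.63 in KO. Oasl1, among the largest positive differences, was at 7.99, 7.60 and 7.02 in WT and 7.64, 8.04 and 8.02 in KO, where WT1 lay among the KO arrays and WT3 was lowest of all. The intervals are wide enough, at an SE of 0.25 for Oasl1, that a change of that size could not be told from none.

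Mx proteins are dynamin-like GTPases that block viral replication. Mx1 was at 4.96, 5.51 and 4.98 in WT and 4.53, 4.68 and 4.69 in KO, lower on each KO array by a mean of 0.51 (limma adjusted p = 0.161) with every KO value under 5, and by 0.10 with the 3' minus 5' covariate. Mx2 was at 6.07, 6.03 and 6.37 in WT and 6.15, 6.34 and 6.31 in KO, with a difference of 0.11 and overlap.

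Of the 3 cytosolic RNA sensor genes, 1 was lower at an unadjusted p under 0.05 in limma (33.3%, against 13.0% of all genes). Differences between the genes were not tested. Ifih1 (MDA5), which recognizes long double-stranded RNA, was at 9.65, 10.13 and 10.01 in WT and 9.24, 9.12 and 9.51 in KO. The groups lay apart with a log2 change of -0.64 (SE 0.17, limma adjusted p = 0.109), and with the covariate it was -0.21 (unadjusted p = 0.441 in limma). Dhx58 (LGP2), a relative without signaling domains, was lower on every KO array by a mean of 0.25 (unadjusted p = 0.0703 in limma), but the gap between the lowest WT array, at 6.11, and the highest KO array, at 6.10, was under 0.01. With the covariate its difference was 0.0056. Its dimmer probe sets, also apart but with values only between 3.39 and 4.43, differed by -0.23 and -0.14 (unadjusted p = 0.145 and 0.200 in limma). Ddx58 (RIG-I), the sensor of short RNA with a triphosphate end, was at 8.69, 8.51 and 8.50 in WT and 8.61, 8.68 and 8.61 in KO on its brightest probe set. That probe set differed by 0.07 with an SE of 0.11. Its other probe sets differed by -0.30 and, on the dimmest, by 0.50 (unadjusted p = 0.00341 in limma).

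Of the transcription factors, the genes of 3 stayed within 0.06 between the groups. Irf1 was at 10.94, 11.03 and 10.99 in WT and 10.91, 10.99 and 10.89 in KO, with a log2 change of -0.06 and an SE of 0.10, the smallest of all members. Irf7, the amplifier of type I interferon production, differed by -0.01, and Irf9, the DNA-binding part of the type I complex, by 0.03. Stat2, its partner in that complex, was higher in KO. It was at 5.20, 5.31 and 5.26 in WT1 to WT3 and at 5.75, 5.89 and 5.79 in KO5 to KO7. The groups lay apart, with a log2 change of 0.55 (SE 0.10, limma adjusted p = 0.0665), and its second probe set differed by 0.63 (unadjusted p = 0.024 in limma). With the covariate Stat2 was at 0.66 (unadjusted p = 0.0127 in limma), and its change stayed between 0.51 and 0.66 under the alternatives in which it was tested. Both probe sets are dim, with every value under 6, and the alternative with a minimum mean log2 value of 6 left Stat2 out.

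**Figure D3:**
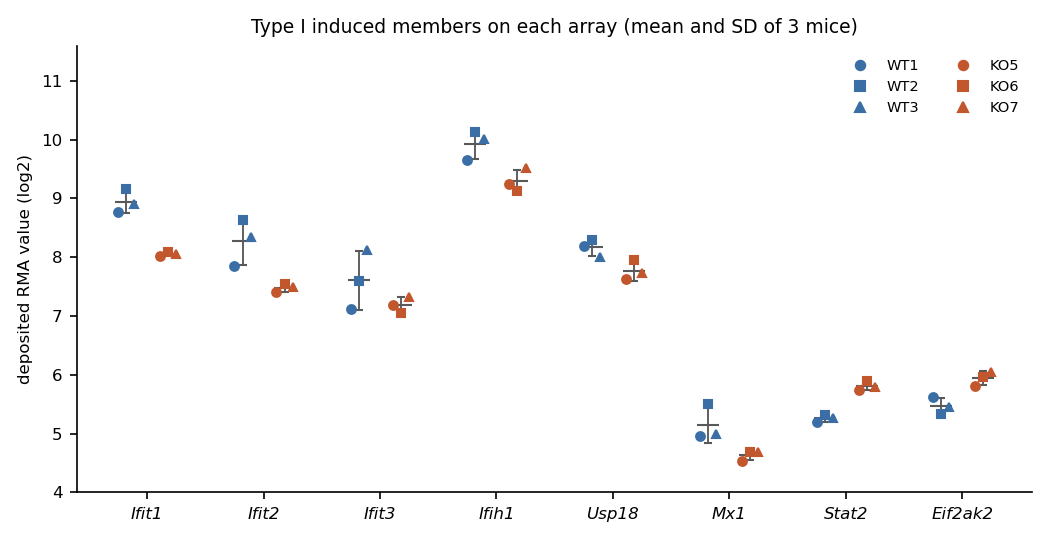
Deposited RMA values (log2, y axis) of 8 type I induced members on their brightest probe set; each point is 1 array, bars the mean and SD of 3 mice, blue WT and orange KO. The KO arrays of Ifit1 lie between 8.02 and 8.09, below every WT array, and those of Stat2 between 5.75 and 5.89, above every WT array.

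Of the 8 measured other effectors, 1 was lower (12.5%, against 13.0% of all genes) and 1 higher (12.5%, against 6.17%) at an unadjusted p under 0.05. Usp18, a protease that removes the ubiquitin-like ISG15 from proteins and dampens the type I receptor, was at 8.20, 8.29 and 8.01 in WT and 7.62, 7.95 and 7.73 in KO. This is a difference of -0.40 (limma adjusted p = 0.169) with the groups apart by 0.06, from WT3 to KO6. Eif2ak2 (PKR), a kinase that stops translation on sensing double-stranded RNA, was at 5.61, 5.33 and 5.45 in WT and 5.81, 5.97 and 6.04 in KO. Its log2 change was 0.47 (SE 0.12, limma adjusted p = 0.109) on a dim probe set, and its other probe sets, dimmer still, differed by 0.09 and 0.29. With the covariate the change was 0.22 (unadjusted p = 0.32 in limma).

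Rtp4, a chaperone of receptors at the cell surface, differed by -0.41 and just missed p under 0.05 (unadjusted p = 0.0603 in limma). Ifi35, Cmpk2, Bst2 and Xaf1 stayed between -0.13 and 0.18 with overlap between the groups. Dimmer probe sets went the other way for 3 of these genes, by 0.16 for Rtp4, 0.19 for Cmpk2 and -0.37 for Xaf1, and 0 of the 3 had an unadjusted p under 0.05 in limma. Ifi35 was at 11.14, 11.40 and 11.73 in WT and 11.40, 11.22 and 11.29 in KO. Parp9, Parp14 and Dtx3l, a ubiquitin ligase complex and its relative that modify STAT signaling, differed by -0.11, -0.21 and 0.08, and 0 of the 3 had an unadjusted p under 0.05 in limma. Dtx3l was at 8.90, 8.81 and 8.80 in WT and 8.94, 8.65 and 9.15 in KO.

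Rsad2 (viperin), an enzyme that makes a chain-terminating nucleotide against viruses, gave a different value on each of its 3 probe sets. The brightest was at 10.51, 11.24 and 10.19 in WT and at 10.52, 10.73 and 10.76 in KO, a log2 change of 0.02 (SE 0.26). The next was at 9.19, 9.30 and 8.60 in WT and 9.47, 9.72 and 9.55 in KO, a change of 0.55 (unadjusted p = 0.0247 in limma). The dimmest was at 7.60, 7.37 and 6.95 in WT and 8.16, 8.42 and 8.39 in KO, a rise of 1.02 (SE 0.18, limma adjusted p = 0.0602). This was the 1 probe set called among the 18 that were not the brightest of their gene, where 1.69% of all probe sets were called higher and 0.300% lower. The KO arrays lay above WT on both dimmer probe sets, while WT2 was highest of all arrays on the brightest.

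**Figure D4:**
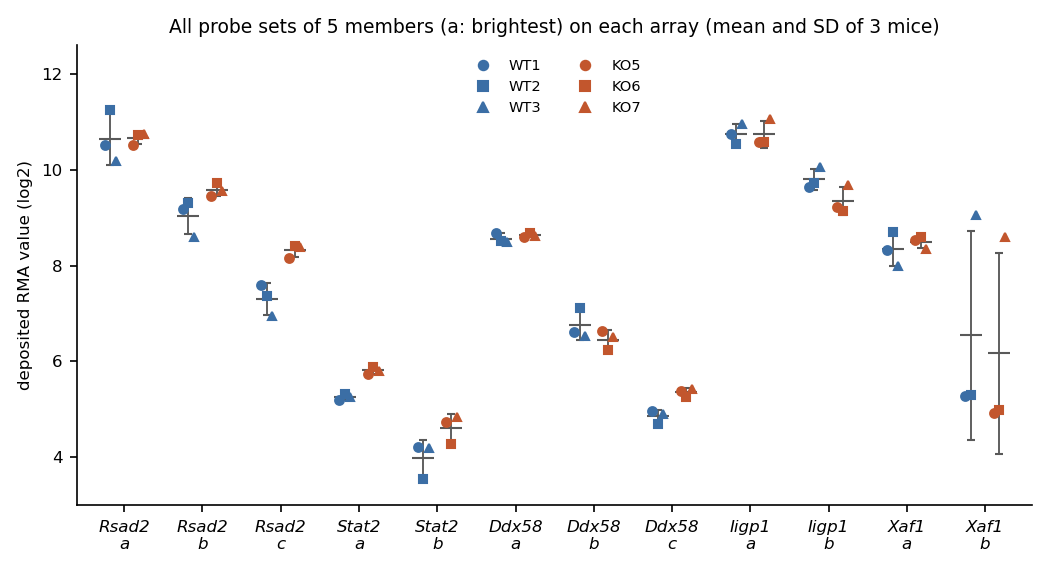
Deposited RMA values (log2, y axis) of every probe set of Rsad2, Stat2, Ddx58, Iigp1 and Xaf1, ordered from the brightest (a); each point is 1 array, bars the mean and SD of 3 mice, blue WT and orange KO. The changes of Rsad2 are 0.02, 0.55 and 1.02 from left to right, and Xaf1 b is high on 1 WT and 1 KO array.

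Upstream of these genes, the type I receptor gene Ifnar2 was lower on each KO array for each of its 3 probe sets. On the brightest it was at 10.07, 10.11 and 10.07 in WT and 9.96, 9.80 and 9.53 in KO, a log2 change of -0.32 (limma adjusted p = 0.246), and the others differed by -0.51 and -0.23. The partner Ifnar1 was at 7.88, 7.24 and 7.55 in WT and 7.66, 7.51 and 7.34 in KO, with overlap and a change of -0.05, while its dimmer probe set differed by 0.40 with the groups apart. The type II receptor genes Ifngr1 and Ifngr2 differed by -0.38 and 0.46 with overlap, and the second Ifngr2 probe set by -0.28. Il10rb and Ifnlr1, which form the receptor of type III interferons, differed by -0.14 and 0.18.

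The gene of interferon gamma, Ifng, was at 5.83, 4.74 and 5.09 in WT and at 4.35, 4.39 and 4.57 in KO. The groups lay apart, with a log2 change of -0.78 (SE 0.26, limma adjusted p = 0.168) with every value under 6. Ifnb1 was highest in WT3, at 9.02, against 6.85 and 7.51 in WT1 and WT2 and 6.92, 6.83 and 6.30 in KO, a change of -1.11 (limma adjusted p = 0.284) with overlap. It was chosen for mention after its values were seen. Over 8 lists of ligands, receptors, signaling proteins, nucleic acid sensors and other interferon-induced genes, 111 genes were measured and 1 was called. At an unadjusted p under 0.05, 18 of the 111 were lower (16.2%, against 13.0% of all genes) and 8 higher in KO (7.21%, against 6.17%), and their median log2 change was -0.04. The called gene was Slfn5, a Schlafen gene that interferon induces, with a rise of 1.26 (limma adjusted p = 0.0427) on its brightest probe set, and its other probe sets differed by 0.13 and 0.12. Of 12 other GBP and IRG genes 4 were measured, with a median change of -0.16. A dimmer Gbp7 probe set was higher in KO by 1.07 (limma adjusted p = 0.0602) and met the limits of a call, while the brightest differed by 0.06. The dimmer Gbp6 probe set differed by -0.36. On their brightest probe sets 0 of the 4 had an unadjusted p under 0.05 in limma. Other genes at that limit included Plscr1 (-0.77) and Samd9l (-0.71), both interferon-induced antiviral genes, the sensor adaptor gene Traf6 (-0.67) and the receptor kinase gene Tyk2 (0.50), and among genes of class I antigen presentation Tap2 (0.94), Psmb10 (-0.43) and Erap1 (-0.40).

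Of 18 measured markers of T, NK and B cells all had a negative change, with a median of -0.76, where 61.2% of all genes were negative. At an unadjusted p under 0.05 in limma 3 of the 18 were lower, Gzmb (-0.99), Gzma (-0.71) and Cd52 (-1.68), which is 16.7% against 13.0% of all genes. Of 19 macrophage and dendritic cell markers 17 had a negative change, with a median of -0.25, 4 were lower at that limit (21.1%) and 1 was called, Aif1 (-1.41). Their mean levels overlapped between the groups. The T, NK and B markers averaged 7.63, 6.61 and 5.72 in WT1 to WT3 and 5.39, 6.38 and 5.47 in KO5 to KO7, so that KO6 lay above WT3. Macrophage and dendritic markers averaged between 6.25 and 7.04 in WT and between 5.99 and 6.77 in KO. RMA gives every probe set a value, and no marker was at 0. Endothelial markers averaged between 9.13 and 9.69 in WT and between 9.74 and 10.3 in KO. All 12 had a positive change, with a median of 0.65, 6 were higher at an unadjusted p under 0.05 in limma, against 6.17% of all genes, and 2 were called, Cldn5 (1.24) and Tie1 (1.16). Of 12 fibroblast markers 9 had a positive change, 4 were higher at that limit (33.3%) and 2 were called, Col1a1 (1.43, limma adjusted p = 0.0492) and Sparc (1.73). The fibroblast mean was at most 11.07 in WT and ran from 10.95 to 11.62 in KO, with KO7 below the WT arrays. For the calls in these lists, the shares among all genes were 0.517% higher and 0.462% lower. The part of all these cells in the differences of the members was not tested.

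The differences of the 10 members with an unadjusted p under 0.05 kept their sign under each of the alternatives in which they were measured, up to 15 in number. For most alternatives this outcome was fixed in advance. The groups lay apart for all 10, so leaving out or weighting arrays could not reverse a sign. The other prior, the replicate block and the minimum level do not change the difference itself. When each array was left out in turn, 7 of the 10 kept an unadjusted p under 0.05 in limma every time, and Igtp, Mx1 and Usp18 did not. With the 3' minus 5' difference as a covariate 4 of them did, Ifi47, Igtp, Ifit1 and Stat2. Their adjusted p in that limma fit lay between 0.936 and 0.983. The covariate does not overlap between WT and KO, so that fit cannot separate RNA integrity from genotype. In that fit 3 of the 34 members were lower at that limit (8.82%, against 3.36% of all genes) and 2 were higher, the second being Cmpk2 at 0.74. The counts of lower members were 12 without WT1 (35.3%, against 16.2% of all genes) 7 without WT2 (20.6%, against 8.45%) and 5 without KO5 (14.7%, against 9.35%).

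**Figure D5:**
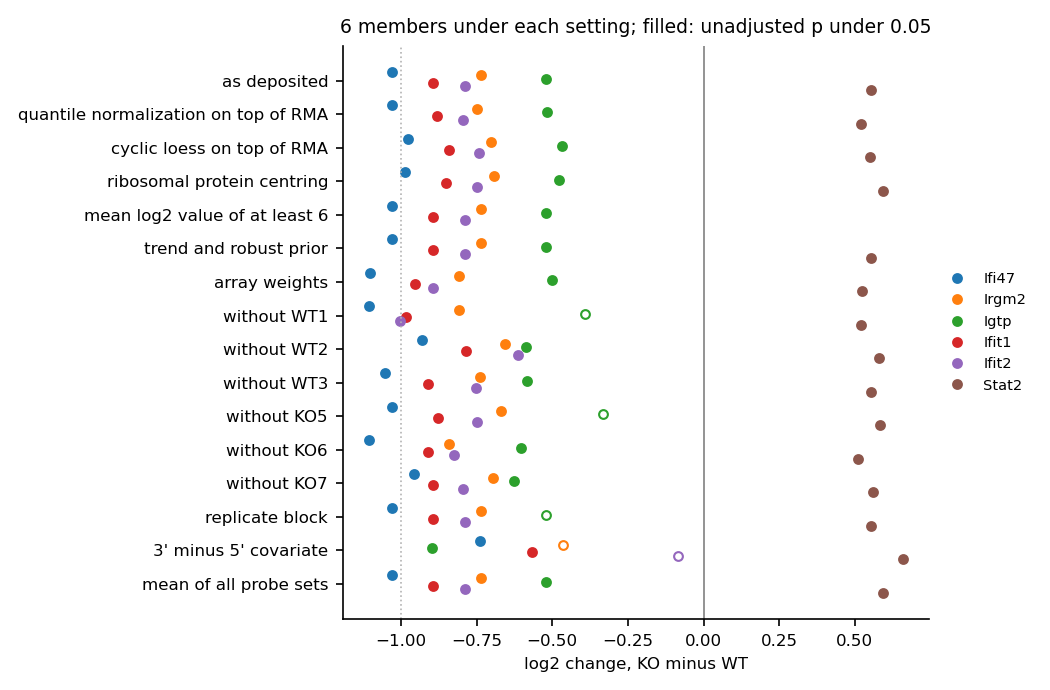
Log2 change (KO minus WT, x axis) of 6 members as deposited and under each alternative (y axis); each point is 1 limma fit, filled points have an unadjusted p under 0.05, and the dotted line marks 2-fold lower. With the 3' minus 5' covariate Ifit2 lies at -0.08 and Ifi47 at -0.74, while Stat2 lies at 0.66.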

How the data were processed

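Total RNA of mammary epithelial organoids was hybridised to Affymetrix mouse arrays, 1 per mouse, 3 WT and 3 KO. The values deposited by the authors are on a log2 scale and were computed with RMA, of a version not stated in these sources, and the methods name the packages simpleaffy and limma. They were used as deposited. Of 45101 probe sets, 64 Affymetrix controls were left out and 45037 tested, of which 34945 name 1 gene in the platform's annotation, 932 several and 9160 none. The genotypes were contrasted in limma 3.58.1 under R 4.3.3 (lmFit, eBayes, no covariate), and p-values over the whole table were adjusted by the Benjamini-Hochberg method. The fit was checked on simulated data. Alternatives were other normalizations, a minimum mean log2 value of 6, other priors and weights, each array left out, a replicate block, a 3' minus 5' covariate and averaging a gene's probe sets. Named genes were the members at an unadjusted p under 0.05, the 3 largest rises and falls, the brightest of each role group, the GTPases, the receptors, and up to 5 genes at that limit from each pathway or cell type list. The members and lists were chosen with earlier results of these data known. Figures used matplotlib 3.10.9 under Python 3.11.15. The number of arrays limits the precision.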

Additional observations from a re-analysis of the deposited data

How the results depend on the processing

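The count of members called lower in KO, 1 as reported, was 0 after cyclic loess normalization, after ribosomal protein centring and with the 3' minus 5' covariate, and between 0 and 2 with 1 array left out. It was 1 in the other fits. An adjusted p under 0.05 with no fold limit also gave 1, Ifi47, whose adjusted p in limma was above that limit in 9 of 15 alternatives (range 0.0112 to 0.952). At an unadjusted p under 0.05 with no fold limit 8 members were lower and 2 higher. By limma 0 were called higher in every fit at the limits of the study. The GTPase median ran from -0.39 to -0.070 with 1 array left out and the type I median from -0.12 to -0.0054. Under the other alternatives both moved by less than the spread between replicate arrays. Deviations from the group means correlated at -0.16, 0.16 and 0.10 for arrays labelled with the same replicate number (WT1 and KO5, WT2 and KO6, WT3 and KO7). The numbers were therefore not taken as pairs. With the replicate block the lower count was 1, and the Igtp difference of -0.52 had an unadjusted p = 0.0647 in limma. Without probe sets at a mean log2 value under 6, Mx1, Stat2 and Eif2ak2 were not tested. The cause of these shifts was not tested.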

Other observations

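Xaf1, an interferon-induced gene that promotes cell death, has a second, dimmer probe set that split the arrays without regard to genotype. It was at 9.06 in WT3 and 8.59 in KO7 and between 4.93 and 5.29 on the remaining arrays, while the brightest Xaf1 probe set lay between 8.00 and 8.71 on all 6. Of the 45037 probe sets tested, it was the 1 on which any pairing of a WT and a KO array exceeded the remaining 4 arrays by at least 2 on the log2 scale. In the opposite direction 1 probe set was at least 2 lower on such a pair, again WT3 and KO7. It names Glycam1, known both from vessels of lymph nodes and from milk, at 4.54 in WT3 and 3.83 in KO7, against 14.2, 14.0 and 13.9 in WT1, WT2 and KO6 and 7.80 in KO5. WT3 and KO7 carry the same replicate number in the sample labels. The search was made after the Xaf1 values were seen, and no cause was tested.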
